A study of Mus musculus with 18 samples.

Results

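The comparison here was between obstructed kidneys of TIMP3-/- mice and obstructed kidneys of WT mice. Its members were the 3 TIMP3-/- UUO arrays and the 3 WT UUO arrays, chosen by their labels, 6 of the 18 arrays of the series. All mice were of strain C57BL/6, and mouse age and the construction of the TIMP3-/- allele are not given in the sources used here. In unilateral ureteral obstruction (UUO) the right ureter was tied off near the kidney at a pair of points, leaving nerves and vessels alone, and the kidney of that side was frozen at day 3. TIMP3-/- sham and WT sham mice, 3 arrays each, had the same surgery with no tie and served as the unobstructed comparison, and 3 TIMP2-/- UUO arrays as the other obstructed knockout. Each array measured total RNA of kidney tissue on the Affymetrix Mouse430A_2 chip, whose probe sets (groups of short probes for 1 transcript) give an intensity in arbitrary units. The labels call the samples biological replicates, and p-values rest on the spread between replicates, estimated over all 6 groups together. In such bulk RNA, fewer cells of a type and less RNA per cell cannot be told apart.

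TIMP3 is secreted and, unlike its relatives, held in the matrix around cells. It inhibits matrix metalloproteinases (MMPs) and also sheddases of the ADAM family, among them ADAM17, which releases TNF and ligands of the EGF receptor from the cell surface. An obstructed kidney is known to lose transcripts of its tubule cells, above all of the proximal tubule, while fibroblasts, contractile cells and leukocytes add theirs.

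Several arrays stood apart. WT UUO 2 had a hepatocyte marker score of 4.61, a score being the mean log2 intensity of a list minus each gene's median over the 18 arrays, and no other array of the series exceeded 0.28. Alb, the albumin gene of hepatocytes, read 84.1, 54 and 89.2 on the TIMP3-/- UUO arrays, against 72.7, 28106 and 254 on the WT UUO arrays. TIMP3-/- UUO 2 and WT sham 3 had second principal component values of -55.2 and -81.4. WT UUO 2, TIMP3-/- UUO 2 and WT sham 3 are called the 3 doubted arrays, and results are given with WT UUO 2 and without it. The kidney markers Slc34a1, Lrp2 and Umod read 2532 or more, 1315 or more and 13310 or more on the 6 arrays.

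Timp3 was lost in the mice labelled as lacking it. Its brightest probe set, 1449335_at, read 35.1, 40.5 and 35.1 on the TIMP3-/- UUO arrays, against 5274, 5056 and 4260 on the WT UUO arrays. Every TIMP3-/- value lay below the 25th percentile of the arrays' intensities (56.8 to 64.2), so the fitted log2 difference of -7.04 (SE 0.21, limma adjusted p = 5.62e-12) describes a signal near background and is not an exact fold. All 4 Timp3 probe sets fell, with log2 differences of -5.68 to -7.36.

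The other inhibitors of the family did not pass. Timp1, an injury-induced inhibitor, read 12814, 3457 and 3464 on the TIMP3-/- UUO arrays, against 2796, 10929 and 2287 on the WT UUO arrays. The groups overlapped, with 1 high array in each, and the log2 difference was 0.38 (SE 0.52, limma adjusted p = 0.7). Timp2 differed by 0.21, Timp4 by -0.06 and Reck, a membrane-anchored inhibitor of MMPs, by 0.15 on the log2 scale, and none passed. Among the 20 genes nearest to Timp3 in the RefSeq order, 8 were on the array and 0 passed in the limma fit, with WT UUO 2 or without it, while 2 had an unadjusted p under 0.05. They included Syn3, the gene within which Timp3 lies, at a log2 difference of -0.52 (SE 0.24, limma adjusted p = 0.24).

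**Figure D1:**
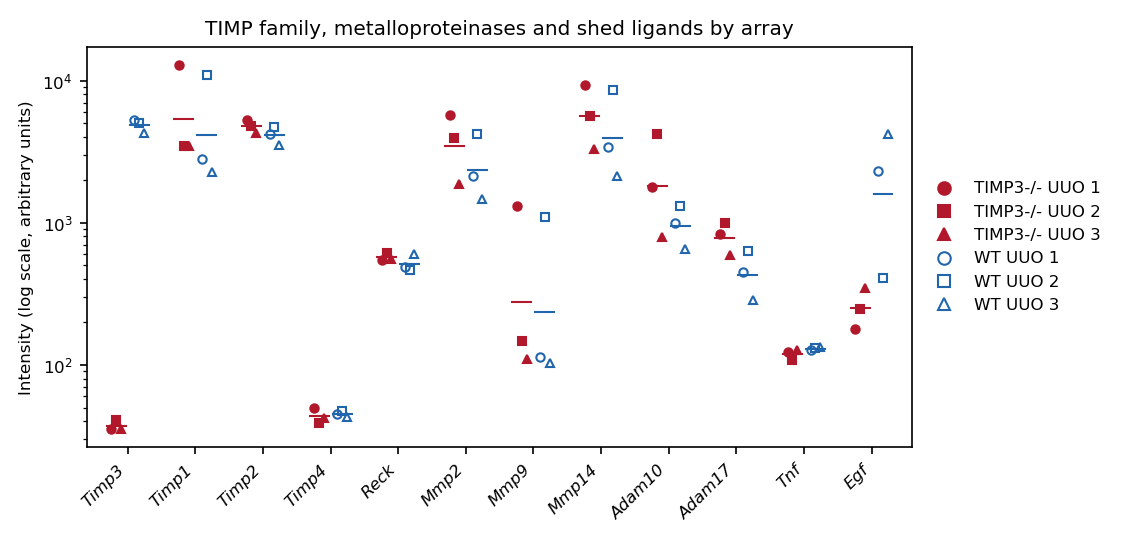
Intensity (log scale, arbitrary units) of TIMP family members, metalloproteinases, Tnf and Egf on each array, with TIMP3-/- UUO in filled red symbols left of WT UUO in open blue symbols; the symbol shape gives the replicate number and the line the geometric mean of 3 arrays. Timp3 sits at 35.1 to 40.5 on the TIMP3-/- UUO arrays and at 4260 to 5274 on the WT UUO arrays, Egf is also apart, and the other genes drawn overlap between the groups.

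Across the chip, 160 of 22626 probe sets passed at a limma adjusted p under 0.05 (0.707%), of which 122 were higher in TIMP3-/- UUO kidneys (0.539%) and 38 lower (0.168%). On each of the 160, all 3 TIMP3-/- UUO arrays lay on one side of all 3 WT UUO arrays, which held for 3420 of all probe sets (15.1%). The 160 included 146 probe sets with 1 gene symbol, which named 135 genes. With 1 probe set per gene, the brightest, 69 of 12393 genes passed (0.557%), 39 higher (0.315%) and 30 lower (0.242%).

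The counts depended on single arrays. When WT UUO 2 was left out, 2203 probe sets passed (9.74%), 939 higher (4.15%) and 1264 lower (5.59%), and 1310 genes by the brightest probe set (10.6%), 465 higher (3.75%) and 845 lower (6.82%). All 160 probe sets that passed with every array also passed then, in the same direction. When TIMP3-/- UUO 2 was left out instead, 46 probe sets passed (0.203%), 39 higher (0.172%) and 7 lower (0.0309%), and 14 genes (0.113%), 12 higher (0.0968%) and 2 lower (0.0161%). Without the 3 doubted arrays 812 probe sets passed (3.59%), 428 higher (1.89%) and 384 lower (1.7%), and 478 genes (3.86%), 214 higher (1.73%) and 264 lower (2.13%). Leaving out TIMP3-/- UUO 3 gave 1091 higher and 1394 lower, while leaving out WT UUO 3 gave 26 higher and 9 lower. A total of 135 of the 160 passed with all arrays, without WT UUO 2 and without the 3 doubted arrays.

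The largest falls and rises were ranked by the brightest probe set of each gene, among genes without overlap between the groups. Of the 11 largest falls after Timp3, 5 were on the list of proximal tubule metabolic enzymes (Hpd, Cyp2d26, Cyp2d9, Dpys and Upb1) and 2 on that of proximal tubule transporters and receptors (Slc22a7 and Slc5a2). These lists held 32 and 25 of the 12393 genes. Both were chosen with earlier results of these data known, so their share of the falls is no independent evidence. By known function, amino acid breakdown was represented by Hpd, Gnmt, Aadat and Bhmt2, pyrimidine breakdown by Dpys and Upb1, drug metabolism by Cyp2d26 and Cyp2d9, and transport by Slc22a7 and Slc5a2. With these and C8g, the gamma chain of complement component 8, the 11 largest falls after Timp3 ran from -3.48 to -1.53 on the log2 scale. The plot of the largest falls and rises shows each array.

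Cyp2d26, a cytochrome P450 of the 2D family, read 173, 160 and 344 on the TIMP3-/- UUO arrays, against 941, 1214 and 2404 on the WT UUO arrays. The groups did not overlap, and TIMP3-/- UUO 3 and WT UUO 3 were the highest of their groups. The log2 difference was -2.72 (SE 0.39, limma adjusted p = 0.00355), 0.151 times the WT level, and this was the lowest adjusted p of the 11 falls after Timp3. Cyp2d9, of the same family, read 255, 248 and 434 on the TIMP3-/- UUO arrays, against 804, 1071 and 2421 on the WT UUO arrays. Again both groups were highest on their replicate 3, and the difference was -2.08 (SE 0.38, limma adjusted p = 0.02).

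Upb1, the enzyme of the last step of pyrimidine breakdown, read 480, 415 and 697 on the TIMP3-/- UUO arrays, against 1354, 1096 and 2545 on the WT UUO arrays. No TIMP3-/- value reached the lowest WT value, and the log2 difference was -1.59 (SE 0.26, limma adjusted p = 0.00943). Dpys, the enzyme one step earlier, was dim, at 47.4, 46.9 and 60.7 on the TIMP3-/- UUO arrays, against 98.3, 156 and 258 on the WT UUO arrays, with TIMP3-/- UUO 1 and TIMP3-/- UUO 2 below the 25th percentile. No array of one group reached the other, with a difference of -1.63 (SE 0.33, limma adjusted p = 0.0363), and 1 of its 3 probe sets passed.

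Hpd, an enzyme of tyrosine breakdown, read 74.2, 55.1 and 100.1 on the TIMP3-/- UUO arrays, against 243, 2616 and 899 on the WT UUO arrays. WT UUO 2, the array with the high hepatocyte score, was the highest, and liver is known to express Hpd too. The log2 difference was -3.48 (SE 0.61, limma adjusted p = 0.017) with all arrays, and -2.65 (SE 0.51, limma adjusted p = 0.0109) without WT UUO 2.

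Gnmt, which methylates glycine and is also abundant in liver, read 179, 128 and 211 on the TIMP3-/- UUO arrays, against 365, 3397 and 1234 on the WT UUO arrays. WT UUO 2 was again the highest array, and the groups did not overlap. The difference was -2.77 (SE 0.55, limma adjusted p = 0.0329), and -1.99 (SE 0.44, limma adjusted p = 0.0168) without WT UUO 2. C8g read 138, 115 and 218 on the TIMP3-/- UUO arrays, against 297, 747 and 770 on the WT UUO arrays, a difference of -1.88 (SE 0.36, limma adjusted p = 0.0262) with groups apart. Its adjusted p was 0.0582 without the 3 doubted arrays.

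Aadat, an aminotransferase of tryptophan and lysine breakdown, read 457, 508 and 919 on the TIMP3-/- UUO arrays, against 1744, 1074 and 4874 on the WT UUO arrays. WT UUO 2 was the lowest WT array but above all TIMP3-/- arrays, and the difference was -1.81 (SE 0.39, limma adjusted p = 0.0477) with all arrays and -2.29 without WT UUO 2. Bhmt2, a homocysteine methyltransferase, read 303, 270 and 438 on the TIMP3-/- UUO arrays, against 842, 590 and 1902 on the WT UUO arrays. WT UUO 2 was once more the lowest WT array, and the difference was -1.57 (SE 0.32, limma adjusted p = 0.036), or -1.94 without that array. Of the 2 Bhmt2 probe sets, 1 passed.

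The sequences just upstream of Aadat and Cyp2d26 are shown because the first holds, and the second does not hold, the core motif CAAAGTCCA that hepatocyte nuclear factor 4 alpha (Hnf4a), a transcription factor of liver and proximal tubule, is known to bind. The 250 bases before the RefSeq start of each gene (GRCm38.p6) were searched on both strands, and capitals mark the motif, here in reverse complement. Of the 12 genes with the largest falls, 9 had at least 1 window and 1 of these genes held the motif. Of the 12 genes with the largest rises, 7 had at least 1 window and 0 held it. Over all 32851 windows, of which a gene can have several, 0.384% held it. A match of letters is no measured binding site.
Aadat, chr8:60505874-60506123, plus strand: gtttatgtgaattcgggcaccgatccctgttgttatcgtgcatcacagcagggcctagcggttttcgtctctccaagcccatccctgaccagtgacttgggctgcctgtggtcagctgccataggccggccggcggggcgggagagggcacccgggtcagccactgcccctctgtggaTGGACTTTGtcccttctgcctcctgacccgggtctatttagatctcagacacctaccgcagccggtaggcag
Cyp2d26, chr15:82794246-82794495, minus strand: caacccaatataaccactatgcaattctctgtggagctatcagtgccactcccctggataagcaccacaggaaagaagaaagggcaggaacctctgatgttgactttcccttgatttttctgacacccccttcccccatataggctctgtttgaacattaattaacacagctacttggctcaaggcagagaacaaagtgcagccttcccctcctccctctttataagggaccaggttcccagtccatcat

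Slc22a7, an organic anion transporter of the proximal tubule, read 75.4, 56.2 and 85.8 on the TIMP3-/- UUO arrays, against 502, 233 and 2370 on the WT UUO arrays. The WT arrays spread widely with WT UUO 2 lowest, and the TIMP3-/- arrays all lay below them. The log2 difference was -3.19 (SE 0.58, limma adjusted p = 0.02), and -3.93 (SE 0.50, limma adjusted p = 0.00197) without WT UUO 2. Slc5a2, the sodium-glucose cotransporter of the early proximal tubule, read 864, 912 and 1386 on the TIMP3-/- UUO arrays, against 3140, 1646 and 5079 on the WT UUO arrays. All TIMP3-/- arrays lay below the lowest WT array, WT UUO 2, and the difference was -1.53 (SE 0.33, limma adjusted p = 0.0435), with both probe sets of the gene passing.

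Of 25 proximal tubule transporters and receptors measured, 2 fell (Slc22a7 and Slc5a2) and 0 rose, with a median log2 difference of -0.77, against -0.07 over all genes. List counts are by the brightest probe set of each gene, and passing members by another probe set are named apart. In this list 18 members were lower at an unadjusted p under 0.05, against 12.5% of all 12393 genes lower and 8.17% higher, the shares against which such counts of the other lists can be read. Counts of differences above or below 0 can be read against 40.9% above 0 over all genes. When WT UUO 2 was left out, 21 of the 25 fell, the median being -1.05 against -0.09 over all genes. Without the 3 doubted arrays 9 fell, and without TIMP3-/- UUO 2 alone 0 passed, with a median of -0.61. The 21 included Slc22a8, another organic anion transporter, at 353, 258 and 627 on the TIMP3-/- UUO arrays, against 817, 275 and 3209 on the WT UUO arrays, where WT UUO 2 lay among the TIMP3-/- values. Its log2 difference was -1.22 (limma adjusted p = 0.271) with all arrays and -2.07 (limma adjusted p = 0.0231) without WT UUO 2. The endocytic receptors Lrp2 (megalin) and Cubn (cubilin) had -0.61 and -0.67, with limma adjusted p of 0.195 and 0.17 with all arrays, and -0.96 and -0.98 without WT UUO 2, where both passed.

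Of 32 proximal tubule metabolic enzymes, 5 fell (Hpd, Cyp2d26, Cyp2d9, Dpys and Upb1) and 0 rose, with a median of -1.02. Without WT UUO 2, 22 fell and 1 rose (Gda, a guanine deaminase), with a median of -1.47. Without the 3 doubted arrays 14 fell, and without TIMP3-/- UUO 2 alone 1 fell (Cyp2d26), with a median of -0.85. In that last fit members passed in 3 of the 44 lists examined, the others being Timp3 and Mx1. The list score was -2.27, -2.41 and -1.89 on the TIMP3-/- UUO arrays, against -1.33, -1.64 and -0.32 on the WT UUO arrays, so the groups did not overlap. For the transporter list the score was -2.21, -2.17 and -1.65 on the TIMP3-/- UUO arrays, against -1.14, -1.88 and -0.32 on the WT UUO arrays, with WT UUO 2 inside the TIMP3-/- range. On sham arrays these 2 lists had median TIMP3-/- minus WT differences of 0.10 for enzymes and 0.04 for transporters.

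Among 10 tubular transcription factors, 2 fell. Ppara, a nuclear receptor that activates fatty acid oxidation genes, read 220, 294 and 438 on the TIMP3-/- UUO arrays, against 761, 525 and 1015 on the WT UUO arrays. There was no overlap, and the log2 difference was -1.28 (SE 0.24, limma adjusted p = 0.0256). Nr1h4, the bile acid receptor FXR, read 355, 313 and 433 on the TIMP3-/- UUO arrays, against 771, 624 and 1348 on the WT UUO arrays. It too did not overlap, at -1.25 (SE 0.26, limma adjusted p = 0.04). Hnf4a read 2350, 2809 and 4225 on the TIMP3-/- UUO arrays, against 5420, 3896 and 6512 on the WT UUO arrays; it overlapped and did not pass at -0.77 (limma adjusted p = 0.0921), and passed without WT UUO 2 at -0.97.

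Of 20 fatty acid oxidation genes, 0 passed in the limma fit with all arrays, 9 were lower at an unadjusted p under 0.05, and the median was -0.26. Leaving out WT UUO 2, 8 fell, among them the peroxisomal thiolase Acaa1b at -1.35 and Acadvl, which starts the oxidation of very long chains, at -0.68. Of 27 oxidative phosphorylation genes, 0 passed with all arrays and 26 of the differences were below 0, from -0.61 to 0.10 with a median of -0.35; 18 were lower at an unadjusted p under 0.05. Without WT UUO 2, 11 fell, such as Cyc1 (cytochrome c1) at -0.83 and Sdhb (succinate dehydrogenase) at -0.81.

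Further along the nephron, 0 of 24 loop, distal tubule and collecting duct genes passed in the limma fit with all arrays, with a median of -0.66, and 1 was higher and 11 lower at an unadjusted p under 0.05. Wnk1, a kinase that regulates salt transport, rose on another probe set, by 1.57 (SE 0.26, limma adjusted p = 0.011), against the direction of the list. Egf, the growth factor made in the distal tubule, read 179, 248 and 348 on the TIMP3-/- UUO arrays, against 2291, 405 and 4225 on the WT UUO arrays. The groups were apart, but WT UUO 2 lay near the TIMP3-/- values. The log2 difference was -2.66 (SE 0.59, limma adjusted p = 0.0517) with all arrays and -3.64 (SE 0.35, limma adjusted p = 0.00018) without WT UUO 2. In that fit 12 of the 24 fell, including the water channel Aqp2 at -2.23, the vasopressin receptor Avpr2 at -2.22 and Kl (klotho) at -1.39. Umod, the uromodulin gene of the thick limb, differed by -0.15 with all arrays and did not pass in either fit.

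**Figure D2:**
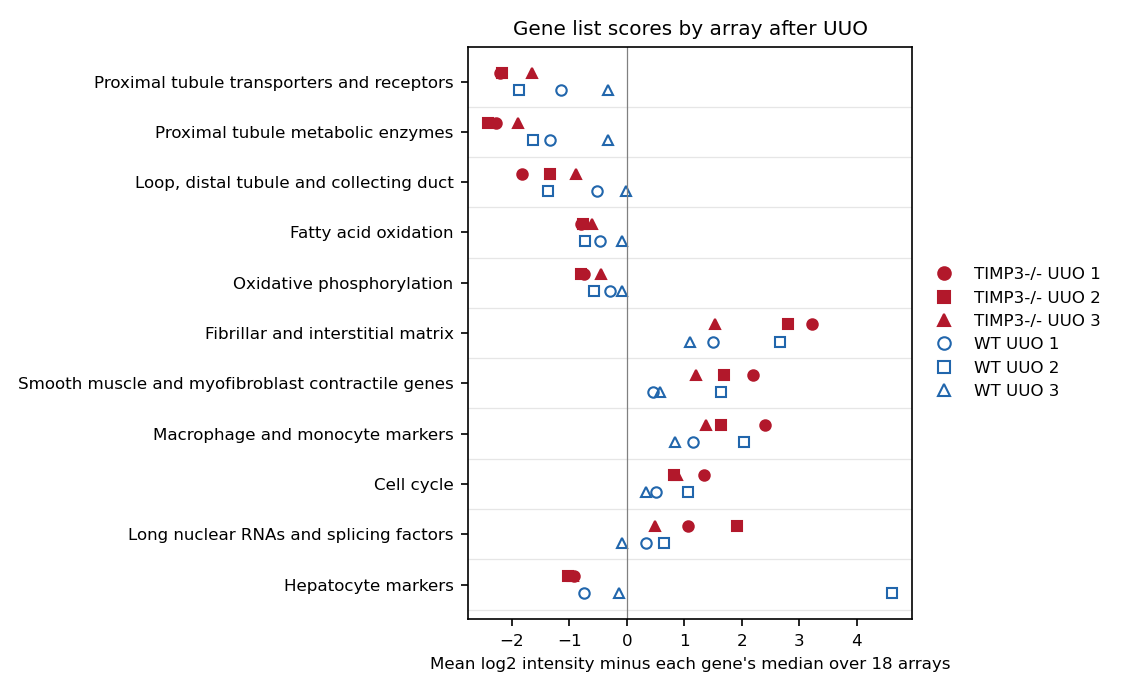
Score of 11 gene lists on each array, the x axis being the mean log2 intensity of the list minus each gene's median over the 18 arrays, with TIMP3-/- UUO in filled red symbols above WT UUO in open blue symbols and the symbol shape giving the replicate number. WT UUO 2 sits at 4.61 for hepatocyte markers and, for most of the other lists, closer to the TIMP3-/- UUO arrays than WT UUO 1 and WT UUO 3 do.

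The largest rise was that of Malat1, a long RNA kept in the nucleus. Its brightest probe set read 8637, 26755 and 8189 on the TIMP3-/- UUO arrays, against 701, 1566 and 749 on the WT UUO arrays. The groups were far apart, TIMP3-/- UUO 2 being about 3 times the other TIMP3-/- arrays. The log2 difference was 3.72 (SE 0.76, limma adjusted p = 0.036), 13.2 times the WT level, and 2 of its 5 probe sets passed. Without TIMP3-/- UUO 2 the difference was 3.17 and the limma adjusted p 0.175. On the sham arrays the same probe set read 5399, 1943 and 1937 in TIMP3-/- kidneys, against 361, 964 and 4410 in WT kidneys, where WT sham 3 was the highest WT array.

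Of 19 long nuclear RNAs and splicing factors, 1 rose (Malat1) and 0 fell, all 19 differences were above 0 and the median was 0.71. The score of this list was 1.06, 1.92 and 0.49 on the TIMP3-/- UUO arrays, against 0.34, 0.64 and -0.08 on the WT UUO arrays, highest on TIMP3-/- UUO 2. Without that array the median was 0.38. The log2 ratios of 3' to 5' control probes overlapped between the groups, at -0.08 to -0.01 for Gapdh on TIMP3-/- UUO arrays and -0.10 to -0.04 on WT UUO arrays. The 18S ribosomal RNA control read 3431, 10086 and 5673 on the TIMP3-/- UUO arrays, against 12335, 10070 and 9939 on the WT UUO arrays, lower on TIMP3-/- UUO 1 and TIMP3-/- UUO 3 than on any WT array. Neat1, another such RNA, read 3681, 9088 and 3588 on the TIMP3-/- UUO arrays, against 1735, 2410 and 931 on the WT UUO arrays, a difference of 1.65 that did not pass (limma adjusted p = 0.125). The part of RNA quality or of TIMP3-/- UUO 2 in these values was not tested beyond leaving the array out.

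Rest and Kdm5a, a transcriptional and a chromatin regulator, were also among the 12 largest rises by the brightest probe set. A further 66 genes passed only by a probe set other than the brightest, with rises there of 2.97 for Nedd4 and 2.44 for Klf6, given below. Rest, a repressor of neuronal genes, read 964, 1122 and 1117 on the TIMP3-/- UUO arrays, against 428, 397 and 324 on the WT UUO arrays. The arrays of each group lay close together and the log2 difference was 1.48 (SE 0.19, limma adjusted p = 0.00174), with 1 of its 3 probe sets passing. Kdm5a, a histone demethylase, read 420, 732 and 501 on the TIMP3-/- UUO arrays, against 148, 177 and 119 on the WT UUO arrays. Every TIMP3-/- array was above every WT array, at 1.87 (SE 0.29, limma adjusted p = 0.0079), 3.67 times the WT level.

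Wdfy3, an adaptor of selective autophagy, read 648, 1018 and 843 on the TIMP3-/- UUO arrays, against 335, 238 and 300.2 on the WT UUO arrays. It rose by 1.51 (SE 0.19, limma adjusted p = 0.00174) with no overlap. Its sham arrays also lay apart, at 1070, 920 and 660 in TIMP3-/- kidneys against 406, 511 and 398 in WT kidneys, a difference of 0.99 that did not pass (limma adjusted p = 0.15). The sham arrays of Rest and Kdm5a, and of Ednrb and Apobec1 below, lay apart in the same direction. Their sham differences were 0.58, 0.74, 0.62 and 0.4 in turn, and none passed (limma adjusted p = 0.472, 0.472, 0.472 and 0.508). For the other largest rises, Malat1, Cfap97, Mx1, Sp100, Clec7a, Pclaf and Map1b, the sham arrays overlapped. How many of all genes lay apart after sham was not counted, and 64.8% of all probe sets had sham differences above 0. Cfap97 was dim, at 111, 286 and 76.2 on the TIMP3-/- UUO arrays, against 29.5, 32.9 and 30.8 on the WT UUO arrays, where it was below the 25th percentile. The groups were apart at 2.11 (SE 0.37, limma adjusted p = 0.0181), and 1 of its 2 probe sets passed.

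Mx1, an interferon-induced GTPase, was the rise with the lowest adjusted p among the 12 largest. It read 194, 144 and 110 on the TIMP3-/- UUO arrays, against 48.8, 62.8 and 43 on the WT UUO arrays. WT UUO 1 and WT UUO 3 were below the 25th percentile, so the log2 difference of 1.52 (SE 0.18, limma adjusted p = 0.000898) is not an exact fold. The groups were well apart, and the sham arrays lay at 32.1 to 37.7 in TIMP3-/- kidneys and 32.2 to 32.8 in WT kidneys. Sp100, a nuclear body protein that interferon also induces, read 182, 173 and 128 on the TIMP3-/- UUO arrays, against 55.3, 101 and 61.4 on the WT UUO arrays. It rose by 1.18 (SE 0.21, limma adjusted p = 0.02) without overlap. Of 21 interferon-induced genes listed, 1 (Mx1) passed and 7 were higher at an unadjusted p under 0.05. Of the differences 20 were above 0 and the median was 0.30, against 0.37 after sham. The list score was 1.11, 0.76 and 0.90 on the TIMP3-/- UUO arrays, against 0.48, 0.67 and 0.36 on the WT UUO arrays, without overlap.

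Clec7a, the receptor dectin-1 of macrophages and other myeloid cells, read 2271, 2096 and 1052 on the TIMP3-/- UUO arrays, against 641, 854 and 421 on the WT UUO arrays. All TIMP3-/- arrays were higher than the WT arrays, at 1.48 (SE 0.32, limma adjusted p = 0.0454). Apobec1, a cytidine deaminase that edits apolipoprotein B mRNA, read 1589, 774 and 985 on the TIMP3-/- UUO arrays, against 414, 535 and 348 on the WT UUO arrays. It rose by 1.32 (SE 0.22, limma adjusted p = 0.0128) and also passed without TIMP3-/- UUO 2 (1.56, limma adjusted p = 0.00694). The macrophage marker score beside these was 2.41, 1.63 and 1.38 on the TIMP3-/- UUO arrays, against 1.15, 2.03 and 0.84 on the WT UUO arrays, and its part in them was not tested.

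Pclaf, a partner of the replication clamp PCNA, read 1162, 880 and 663 on the TIMP3-/- UUO arrays, against 208, 516 and 168 on the WT UUO arrays. It rose by 1.75 (SE 0.38, limma adjusted p = 0.0452) without overlap, WT UUO 2 being the highest WT array. Ednrb, an endothelin receptor, read 418, 397 and 332 on the TIMP3-/- UUO arrays, against 150, 190 and 167 on the WT UUO arrays, with little spread in either group. It rose by 1.18 (SE 0.19, limma adjusted p = 0.011). Map1b, a microtubule-associated protein, read 554, 439 and 307 on the TIMP3-/- UUO arrays, against 130, 251 and 126 on the WT UUO arrays, and rose by 1.39 (SE 0.26, limma adjusted p = 0.0256). For each of Pclaf, Ednrb and Map1b only 1 probe set passed, of 2, 2 and 3 in turn.

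Casp8, the initiator caspase below death receptors of the TNF family, was the 1 of 22 apoptosis genes that rose. It read 1474, 1387 and 1118 on the TIMP3-/- UUO arrays, against 629, 968 and 711 on the WT UUO arrays. The groups did not overlap at 0.80 (SE 0.16, limma adjusted p = 0.0341), and the limma adjusted p was 0.154 without TIMP3-/- UUO 2. Over the named genes, 27 passed with all arrays, and 19 of these no longer passed without TIMP3-/- UUO 2, 20 without WT UUO 3 and 0 without WT UUO 2. In the fit of only the 6 arrays compared, 26 of the 27 no longer passed, Timp3 being the exception. Those that passed without TIMP3-/- UUO 2 were Timp3, Cyp2d26, Mx1, Rest, Wdfy3, Kdm5a, Apobec1 and Cfap97.

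**Figure D3:**
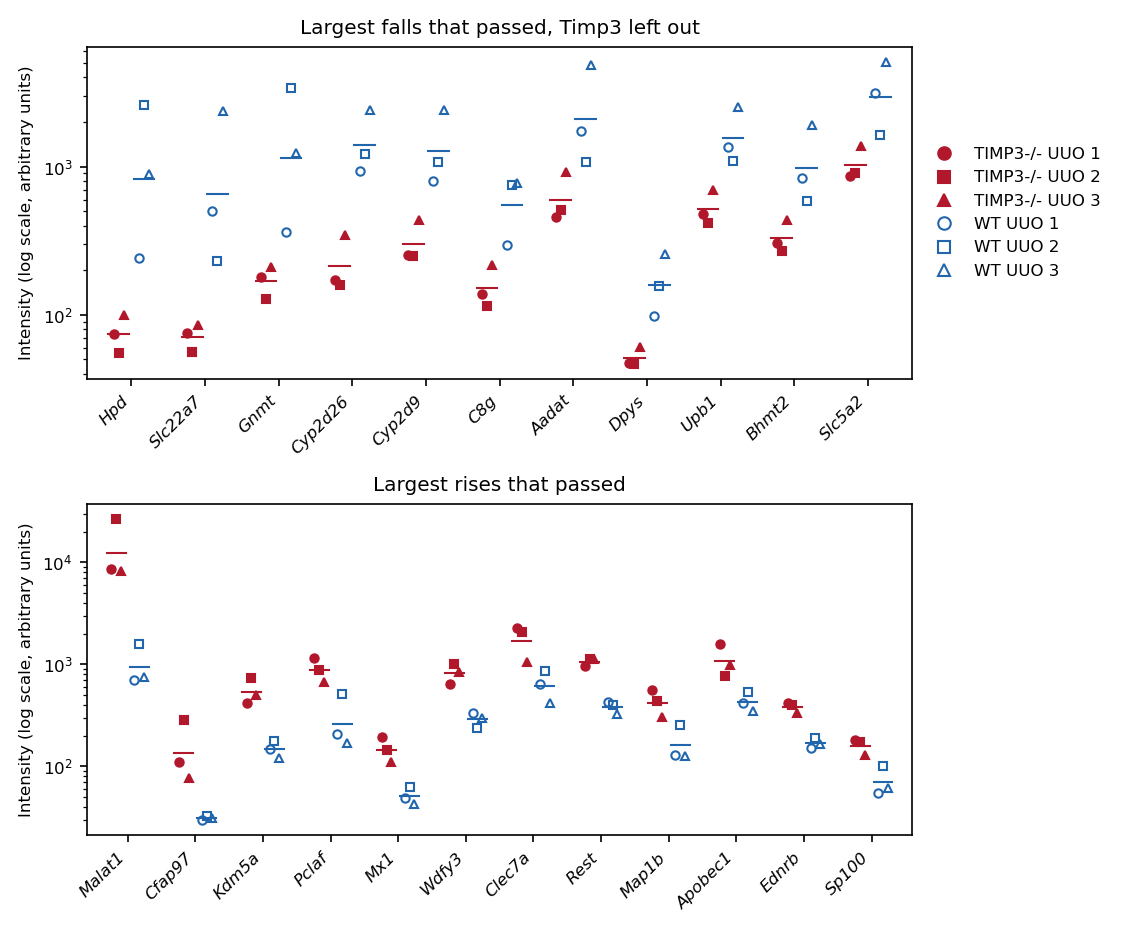
Intensity (log scale, arbitrary units) of the 11 largest falls after Timp3 and of the 12 largest rises, with TIMP3-/- UUO in filled red symbols left of WT UUO in open blue symbols; the symbol shape gives the replicate number and the line the geometric mean of 3 arrays. The genes were ranked by their brightest probe set and chosen among those without overlap between the groups. WT UUO 2 is the highest WT array for Hpd and Gnmt, and TIMP3-/- UUO 2 reaches 26755 for Malat1.

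Probe sets of 1 gene often differed in size. Of the 135 genes that passed by any probe set, 92 had several, of which 83 passed by 1 probe set and 3 by all. The other 163 probe sets of these 92 genes had the same sign in 144 cases. The genes in this and the next paragraph were chosen after their values were seen. Nedd4, a ubiquitin ligase, had on probe set 1421955_a_at 4545, 5807 and 3183 on the TIMP3-/- UUO arrays, against 566, 733 and 417 on the WT UUO arrays. That probe set rose by 2.97 (SE 0.28, limma adjusted p = 6.4e-05), whereas the other 2 differed by 0.77 and 0.91 and did not pass. Probe set 1418280_at of Klf6, an injury-induced transcription factor, rose by 2.44 (SE 0.41, limma adjusted p = 0.0117), against 1.06 and 1.10 on the others, which did not pass.

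Ndufa12, a subunit of respiratory complex I, showed the split in the other direction. On 1455806_x_at it read 4258, 4589 and 5997 on the TIMP3-/- UUO arrays, against 10742, 8407 and 12527 on the WT UUO arrays, a fall of 1.09 on the log2 scale (SE 0.15, limma adjusted p = 0.00242). Its other probe sets differed by -0.62, -0.16 and 0.79, and none passed. Plau, the plasminogen activator urokinase of tubule cells, read on 1422138_at 515, 996 and 1030 on the TIMP3-/- UUO arrays, against 2114, 1415 and 1898 on the WT UUO arrays. The groups were apart at -1.14 (SE 0.24, limma adjusted p = 0.0389), and the second probe set differed by -0.99 (limma adjusted p = 0.0702).

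Proteases that TIMP3 inhibits, and what they release, were examined next. Mmp2, Mmp9 and Mmp14, which cleave matrix and basement membrane, differed by 0.56, 0.24 and 0.50 on the log2 scale, with overlap and without passing. Mmp9 read 1319, 147 and 110 on the TIMP3-/- UUO arrays, against 114, 1090 and 104 on the WT UUO arrays, so 1 array of each group carried a high value. Of 15 MMP genes, 0 passed in the limma fit with all arrays, 2 were higher at an unadjusted p under 0.05, when 8.17% of all genes were, and the median was 0.29. In the fit that left out WT UUO 2, Mmp14 (1.06) and Mmp12, an elastase of macrophages (2.62), rose. Mmp12 read 912, 1048 and 403 on the TIMP3-/- UUO arrays, against 117, 435 and 120 on the WT UUO arrays, with a limma adjusted p of 0.0557 when all arrays were used.

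Of 14 ADAM and ADAMTS genes, 0 passed by the brightest probe set in the limma fit with all arrays, 5 were higher at an unadjusted p under 0.05 and the median was 0.57. Adam17, the sheddase named above, read by the brightest probe set 825, 989 and 589 on the TIMP3-/- UUO arrays, against 448, 627 and 283 on the WT UUO arrays. The groups overlapped and the difference of 0.86 (SE 0.33, limma adjusted p = 0.174) did not pass. Its other probe sets both rose, by 1.06 (SE 0.19, limma adjusted p = 0.02) and 1.25 (SE 0.25, limma adjusted p = 0.032), and neither passed without TIMP3-/- UUO 2. Adam10 read 1784, 4224 and 792 on the TIMP3-/- UUO arrays, against 992, 1300 and 656 on the WT UUO arrays, and did not pass at 0.94 (limma adjusted p = 0.43). Without WT UUO 2, 4 of the 14 rose, with Adam19 at 1.37 and Adamts5 at 1.08.

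Tnf read 122, 109 and 128 on the TIMP3-/- UUO arrays, against 127, 130 and 133 on the WT UUO arrays. The groups overlapped and the difference was -0.12 (SE 0.12, limma adjusted p = 0.587). Of 20 TNF receptors, adaptors and NF-kappaB targets, 0 passed in the limma fit with all arrays, 2 were higher at an unadjusted p under 0.05, the median was -0.01, and 0 passed without WT UUO 2. Birc3, an inhibitor of apoptosis that NF-kappaB induces, rose on another probe set, by 1.17 (SE 0.17, limma adjusted p = 0.00439), and by that probe set also passed without TIMP3-/- UUO 2, while its brightest differed by 0.49 and did not pass. The receptor Tnfrsf1a differed by -0.01. Among 9 ligands and receptors of the EGF family, 0 passed with all arrays in the limma fit and 2 were lower at an unadjusted p under 0.05, and without WT UUO 2 Egf fell and Ereg, an EGF receptor ligand, rose. Array data measure transcripts, and shedding and protease activity were not measured.

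Matrix genes differed mainly in the fit without WT UUO 2. Col1a1, a chain of type I collagen, read 19835, 11506 and 5862 on the TIMP3-/- UUO arrays, against 6035, 12625 and 4747 on the WT UUO arrays. WT UUO 2 lay above 2 of the TIMP3-/- arrays, and the difference of 0.63 (SE 0.38, limma adjusted p = 0.344) did not pass. Of 22 interstitial matrix genes, 0 passed in the limma fit with all arrays and 6 were higher at an unadjusted p under 0.05. All 22 differences were above 0, from 0.29 to 1.79 with a median of 0.75, when 40.9% were above 0 over all genes. When WT UUO 2 was left out, 12 rose with a median of 1.19, among them Vcan (versican) at 2.69, Col5a1 at 1.68, Col6a3 at 1.41 and Fn1 (fibronectin) at 1.19. Without the 3 doubted arrays, 3 rose.

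Contractile genes of smooth muscle and myofibroblasts followed the same pattern. Acta2, smooth muscle actin, read 22373, 16262 and 13371 on the TIMP3-/- UUO arrays, against 6735, 17323 and 9151 on the WT UUO arrays. WT UUO 2 lay within the TIMP3-/- range, and the difference was 0.73 (SE 0.30, limma adjusted p = 0.201). Of 14 genes of this list, 0 passed in the limma fit with all arrays, 9 were higher at an unadjusted p under 0.05 and the median was 0.71. Cald1 (caldesmon) rose on another probe set, by 1.36 (SE 0.24, limma adjusted p = 0.0165). Without WT UUO 2, 10 rose, including Acta2 at 1.11, Tagln at 1.05, Tpm1 (a tropomyosin) at 0.94 and Actg2 at 3.05, and 6 rose without the 3 doubted arrays. For 18 genes of the TGF-beta pathway the median was 0.45, 0 passed with all arrays in the limma fit, 4 were higher and 1 lower at an unadjusted p under 0.05, and Tgfb1 itself differed by 0.02. Tgfb2 rose on another probe set with all arrays, by 1.51 (SE 0.33, limma adjusted p = 0.0499). In the fit lacking WT UUO 2, Inhba, Tgfb2, Ccn2 and Ltbp2 rose and Bmp7, an epithelial factor that opposes TGF-beta, fell by 1.35 on the log2 scale.

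**Figure D4:**
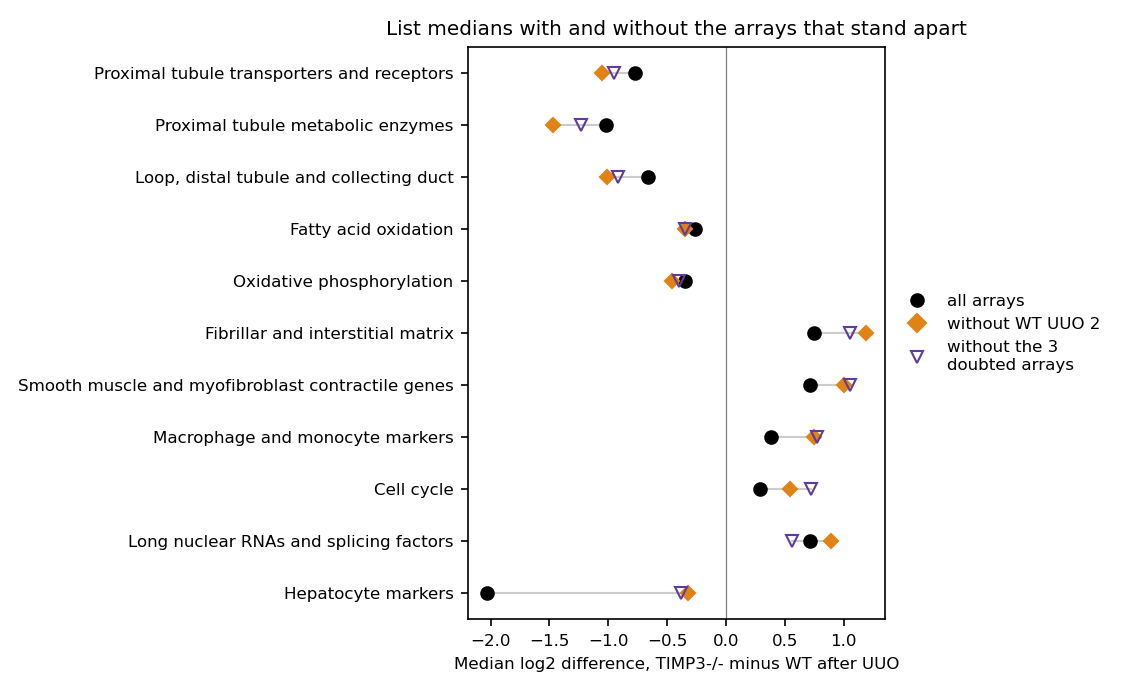
Median log2 difference (TIMP3-/- minus WT after UUO) of 11 gene lists with all arrays (black circles), without WT UUO 2 (orange diamonds) and without the 3 doubted arrays (open purple triangles). The 5 lists at the top, of tubule, fatty acid oxidation and oxidative phosphorylation genes, lie below 0 and the next 5 above 0 in each fit. The hepatocyte list has a median of -0.32 without WT UUO 2 and of -2.03 with all arrays.

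Of 23 macrophage and monocyte markers, 0 passed in the limma fit with all arrays and 5 were higher at an unadjusted p under 0.05. All 23 differences were above 0, with a median of 0.38, and after sham the median was 0.50. When WT UUO 2 was left out, 6 rose, such as Ms4a7 at 1.29, Aif1 at 1.09 and Lyz2 (lysozyme) at 0.75. Among 30 chemokines and cytokines, 0 passed with all arrays in the limma fit, 3 were higher and 1 lower at an unadjusted p under 0.05, and 7 rose without WT UUO 2, including Il18 at 1.24 and Ccl7 at 1.11. Of 27 cell cycle genes, 0 passed with all arrays in the limma fit, 9 were higher and 1 lower at an unadjusted p under 0.05 and the median was 0.29. Leaving out WT UUO 2, 7 rose, with Top2a, a topoisomerase of dividing cells, at 1.92, and 1 (Ccnd1) fell.

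Injury markers of the tubule overlapped between the genotypes with all arrays. Havcr1 (KIM-1) read 6327, 8836 and 11423 on the TIMP3-/- UUO arrays, against 6175, 8439 and 4698 on the WT UUO arrays, and did not pass at 0.46 (SE 0.21, limma adjusted p = 0.224). With WT UUO 2 left out its groups were apart and it passed at 0.68 (limma adjusted p = 0.048), but not without the 3 doubted arrays (limma adjusted p = 0.12). Lcn2 (NGAL) read 4910, 9255 and 15144 on the TIMP3-/- UUO arrays, against 8735, 7198 and 11825 on the WT UUO arrays. Its difference was -0.04 (SE 0.34, limma adjusted p = 0.96), within a wide spread in both groups. In the lists of endothelial, podocyte, basement membrane, collagen processing, fibroblast, tubular injury, complement, MHC class II, immediate early and antioxidant genes, 0 members passed in the limma fit with all arrays, and between 0 and 6 members of each list had an unadjusted p under 0.05. The most were 6 of 18 antioxidant genes, all lower, and 5 of 20 basement membrane genes, all higher. Without WT UUO 2, 4 basement membrane genes rose, and in each other list of these at most 2 members rose and at most 2 fell. By another probe set Klf6 of the immediate early list passed with all arrays, as given above. By such probe sets of the basement membrane list, also with all arrays, the laminin chain Lamc1 rose by 1.38 (SE 0.19, limma adjusted p = 0.0034) and nidogen Nid1 by 1.53 (SE 0.24, limma adjusted p = 0.00943).

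Markers of other tissues were read beside these results. All 17 hepatocyte markers had differences below 0 and a median of -2.03, with 0 passing by the brightest probe set in the limma fit and 9 lower at an unadjusted p under 0.05. Another probe set of Ttr fell, with a log2 difference of -2.90 (limma adjusted p = 0.0458). The brightest Ttr probe set read 8320 to 10268 on the WT sham arrays, where Alb read 277 to 516. Adipocyte markers scored 1.62, 1.49 and -0.48 on the TIMP3-/- UUO arrays, against 0.71, 1.5 and 0 on the WT UUO arrays, so TIMP3-/- UUO 3 was the lowest of the 6. Urothelial markers scored 1.89, 1.29 and 1.13 on the TIMP3-/- UUO arrays, against 0.73, 1.94 and 0.56 on the WT UUO arrays, with WT UUO 2 highest. Of the adrenal cortex, skeletal muscle and red cell markers 0 passed in the limma fit and 2, both on the red cell list, were lower at an unadjusted p under 0.05. The red cell list includes Slc4a1 (log2 difference -1.55, SE 0.57), which is also on the loop, distal tubule and collecting duct list. Cyp11a1, Myh4 and Hba-a1 lay below the 25th percentile of every array, whereas Star, Ckm, Acta1 and Alas2 of the same tissues did not. Acta1, of skeletal muscle, read 612.5, 221 and 92 on the TIMP3-/- UUO arrays, against 72.6, 300 and 66.8 on the WT UUO arrays. On the WT sham arrays it read 44.2 to 51.2. The part of such tissue in the differences was not tested.

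Whether the genotype difference was there without obstruction was asked on the sham arrays, which share none with the comparison above. Between TIMP3-/- sham and WT sham, 10 of 22626 probe sets passed (0.0442%), 6 higher (0.0265%) and 4 lower (0.0177%), the 4 being those of Timp3, and all 10 also passed after UUO in the same direction. By the brightest probe set 2 genes passed (0.0161%), 1 higher (0.00807%) and 1 lower (0.00807%). The 6 higher were 1 probe set each of Nedd4, Dnmt3a, Zbtb7a and Jmy and 2 without a gene symbol. For Nedd4, probe set 1421955_a_at read 1355, 1068 and 817 in TIMP3-/- sham kidneys, against 272, 409 and 308 in WT sham kidneys, a rise of 1.70 (SE 0.28, limma adjusted p = 0.045). Zbtb7a, a transcriptional repressor with 1 probe set, read 451, 420 and 646 on the TIMP3-/- UUO arrays, against 237, 224 and 232 on the WT UUO arrays. It rose by 1.10 after UUO (SE 0.14, limma adjusted p = 0.00174) and by 0.99 after sham (limma adjusted p = 0.0145).

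Probe set 1423066_at of Dnmt3a, a DNA methyltransferase, read 359, 321 and 397 on the TIMP3-/- UUO arrays, against 158, 153 and 148 on the WT UUO arrays. It rose by 1.23 after UUO (SE 0.14, limma adjusted p = 0.000404) and by 0.82 after sham. A second Dnmt3a probe set rose after UUO by 0.83 (limma adjusted p = 0.0165), and the other 3 differed by -0.16 to 0.20 and did not pass. Of the 34 probe sets lower after UUO other than those of Timp3, 25 had sham differences above 0, with a median of 0.12, against 14663 of all 22626 probe sets and a median of 0.09. Of the 122 higher after UUO, 101 had sham differences above 0 with a median of 0.24.

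The test of whether the genotype difference changed with obstruction (UUO minus sham) found 0 probe sets in the limma fit (0%), although 5852 had an unadjusted p under 0.05 and the smallest adjusted p was 0.167. Slc22a7, Hpd and Cyp2d26 had interaction values of -2.95, -3.99 and -2.86 on the log2 scale. A difference seen only after UUO is thus not shown to depend on obstruction with all arrays. Without WT UUO 2, 3 probe sets passed, those of Egf, Dbp and Clec2h.

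**Figure D5:**
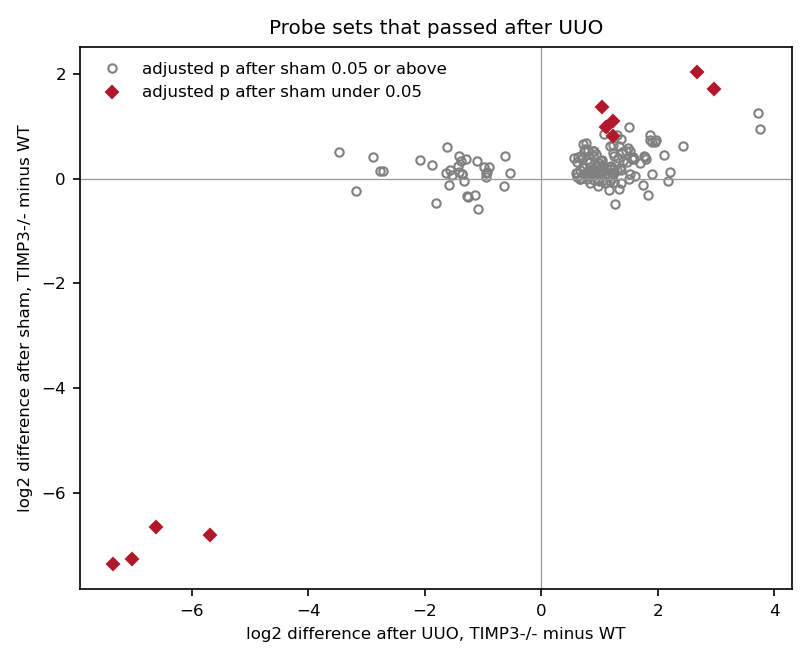
Log2 difference (TIMP3-/- minus WT) after sham on the y axis against that after UUO on the x axis, for the 160 probe sets that passed after UUO; red diamonds also passed after sham. The 4 Timp3 probe sets lie at the lower left, 6 others rose after both operations, and most of the falls after UUO lie near 0 after sham.

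Set against the other knockout, TIMP3-/- UUO kidneys differed from TIMP2-/- UUO kidneys on 1597 of 22626 probe sets (7.06%), 544 higher (2.4%) and 1053 lower (4.65%). By the brightest probe set they differed on 930 of 12393 genes (7.5%), 223 higher (1.8%) and 707 lower (5.7%). This comparison shares the TIMP3-/- UUO arrays with the one against WT, so the 2 are not independent. Cyp2d26 read 173, 160 and 344 on the TIMP3-/- UUO arrays, against 833, 839 and 2265 on the TIMP2-/- UUO arrays, a difference of -2.46 (limma adjusted p = 0.0043). Mx1 was higher by 1.19 (limma adjusted p = 0.0035), Rest by 1.58 (limma adjusted p = 0.00051) and Malat1 by 4.06 (limma adjusted p = 0.013). Of the 25 proximal tubule transporters 19 were lower and 0 higher, of the 32 metabolic enzymes 24 were lower, and of the 22 interstitial matrix genes 14 were higher. The count of probe sets in this comparison lay between 151 without TIMP3-/- UUO 2 and 5577 without TIMP3-/- UUO 3.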

How the data were processed

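The deposited table held 1 intensity per probe set and array on a linear scale, made by the authors with RMA per the submitters' processing notes; no source used here gives its version or the step to linear values. Normalization between arrays would hide a shift shared by all transcripts. Array medians lay between 201 and 247, and no value was missing. Intensities were taken to log2 with no pseudocount. Of 22690 probe sets, 64 controls were left out; 20380 of the rest had 1 gene symbol in the platform annotation, 691 several and 1555 none, and only the first named a gene. The brightest probe set over the 18 arrays stood for a gene, with p-values from the fit to all probe sets.

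One limma model (limma 3.58.1, R 4.3.3) with 6 group means was fitted to all 18 arrays, so that all groups shared 1 estimate of spread (12 residual degrees of freedom). P-values were adjusted by Benjamini-Hochberg over all 22626 probe sets within each of 4 comparisons; a probe set passed under 0.05. An exact two-sided permutation test of 3 arrays against 3 cannot go below p = 0.1. The number of arrays, 3 per group, limits the precision.

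Gene lists numbered 44 (672 genes measured). Genes were named by rule: fixed genes, the 12 largest rises and falls that passed without overlap and with a brighter group mean of at least 100, and for each list its passing or brightest members. Other genes, such as list members given without WT UUO 2, Mmp12, Neat1, Slc22a8 and the marker genes, were chosen after their values were seen. The members, lists and arrays to leave out were chosen with earlier results of these data known. The alternatives left out arrays, changed normalization, filter, pseudocount, probe set choice and variance model, or added a replicate block or array weights.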

Additional observations from a re-analysis of the deposited data

Results flagged for a closer look

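Ttr, the transthyretin gene that liver makes in quantity, had its arrays apart in opposite directions after the 2 operations. It read 929, 737 and 692 on the TIMP3-/- UUO arrays, against 1337, 15660 and 7211 on the WT UUO arrays, a log2 difference of -2.77 (limma adjusted p = 0.0512) on its brightest probe set and of -2.90 (limma adjusted p = 0.0458) on another. On the sham arrays it read 12217, 11239 and 12448 in TIMP3-/- kidneys, against 9615, 8320 and 10268 in WT kidneys. The difference between the UUO and sham contrasts was -3.12, and its test did not pass (limma adjusted p = 0.17). WT UUO 2, with the hepatocyte score of 4.61, was the highest WT UUO array, and without it the UUO difference was -1.99 (limma adjusted p = 0.0327). WT UUO 3, where Ttr read 7211, had a hepatocyte score of -0.13, and Alb read 277 to 516 on the WT sham arrays. The part of the hepatocyte signal of WT UUO 2 was not tested further.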

How the results depend on the processing

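The counts of probe sets that passed between TIMP3-/- UUO and WT UUO (122 higher, 38 lower) moved with the arrays in the fit. Leaving out 1 array at a time gave 26 to 1091 higher and 7 to 1394 lower. The counts were 1 higher and 4 lower with only the 6 arrays compared, 428 and 384 without the 3 doubted arrays, and 348 and 299 without WT UUO 2 and TIMP3-/- UUO 2, an alternative chosen after seeing the data. They were 30 and 19 when limma was refitted to the brightest probe sets alone, against 39 and 30 for the same probe sets in the fit to all probe sets, and 27 and 17 when refitted to the mean of a gene's probe sets. Array weights (gene-by-gene method; limma's default method did not converge) gave 3084 higher and 3162 lower, and the cause was not tested. Deviations of same-numbered arrays correlated at -0.32, 0.24 and 0.61, and 2 of 3 correlated best with their own number. Among the 122 higher probe sets, replicate 2 was the highest array for 75 in TIMP3-/- UUO and for 81 in WT UUO. Among the 38 lower, replicate 3 was the highest for 33 in TIMP3-/- UUO and for 27 in WT UUO. These values do not settle whether the replicate numbers pair the arrays. A fit with the replicate number as a block gave 159 higher and 71 lower. Repeated quantile normalization, median centring, the filter on dim probe sets, the pseudocount of 32, the removal of suffixed probe sets and the robust variance model kept the counts at 83 to 141 higher and 31 to 46 lower.

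Between TIMP3-/- sham and WT sham, where 10 probe sets passed, leave-one-out of UUO arrays gave 7 to 15, the fit without the 3 doubted arrays 5, both gene-level fits 2 and array weights 2420. For UUO minus sham, where 0 passed, leave-one-out gave 0 to 47 (4 without WT UUO 1, 3 without WT UUO 2, 47 without TIMP3-/- UUO 3) and array weights 7266. Between TIMP3-/- UUO and TIMP2-/- UUO, where 1597 passed, leave-one-out gave 151 to 5577, the fit without the 3 doubted arrays 975, without WT UUO 2 and TIMP3-/- UUO 2 896, the brightest probe set 1001, the mean of probe sets 1060, no suffixed probe sets 1005 and array weights 5755. Of 111 named genes, Cxcl12 was the 1 that changed direction past the threshold, at 0.95 with array weights (limma adjusted p = 0.0256) against -0.04. Timp3 passed in all 19 alternatives, Cyp2d26 and Wdfy3 in all but the fit of the 6 arrays alone, and Hpd, Slc22a7 and Malat1 lost their call without TIMP3-/- UUO 1 or TIMP3-/- UUO 2. Probe sets whose brighter group averaged under 100 (23 of the 160) lie near background and limit what can be said of their size.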
